A study of Mus musculus with 15 samples.

Results

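The 10 genes described here encode receptors through which natural killer (NK) cells read the surface of other cells: Ncr1, Klrk1, Klrb1c, Klrd1, Klrc1, Klra3, Klra4, Klra7, Klra8 and Klra17. They were taken by symbol from a deposited table of 23420 gene rows, in which all 10 were present, and all 10 were among the 13592 genes that passed the filter on low values. RNA of whole tumors was sequenced from melanoma cells grafted into female C57BL/6 mice aged 8 weeks, the same strain as the cells, each flank having received 1000000 cells of 1 of 2 lines: D4M.3A.3 (parental) or D3UV2 (UV2), which the series' design text describes as having gained putative neoantigens through UVB. The 15 libraries come from tumors on the left flank, taken on day 13, in 5 groups of 3. Parental tumors received isotype control antibody, anti-PD-1 (an antibody against the T cell checkpoint receptor PD-1) or triple therapy, and UV2 tumors received isotype control antibody or anti-PD-1. Antibodies were given on days 8, 10 and 12, together with imiquimod cream or a lotion. The labels contradict each other on triple therapy: the sample characteristics name anti-PD-1, ablative fractional photothermolysis (a fractional laser) and imiquimod, whereas the treatment protocol names isotype antibody with the laser, on days 8 and 12, and imiquimod. Comparisons with triple therapy are therefore given for the group as labelled. UV2 tumors with triple therapy are not analysed here. The labels do not state that the libraries of a group are separate animals, so the spread that p-values rest on may be technical.

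NK cells use receptors fixed in the germline. They weigh signals from activating receptors, which bind molecules of stressed or infected cells, against signals from inhibitory receptors, which bind major histocompatibility complex (MHC) class I molecules on healthy cells. Ncr1 encodes NKp46, an activating immunoglobulin-like receptor found mainly on NK cells and some innate lymphoid cells. Klrk1 encodes NKG2D, which binds the stress ligands of the Raet1, H60 and Ulbp1 group, and Klrb1c encodes NK1.1, the surface marker by which NK cells of C57BL/6 mice are commonly stained. Klrd1 (CD94) pairs with Klrc1 (NKG2A) into an inhibitory receptor for the non-classical class I molecule Qa-1b, the product of H2-T23. The Klra genes encode the Ly49 receptors: Klra3 (Ly49C) and Klra7 (Ly49G) are inhibitory, Klra4 (Ly49D) and Klra8 (Ly49H) are activating, and Klra17 (Ly49Q) is an inhibitory receptor known best from plasmacytoid dendritic cells. Klrk1, Klrd1 and Klrc1 are also made by activated CD8 T cells.

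In the GENCODE M21 annotation of GRCm38, 9 of the 10 genes lie on chromosome 6, the region known as the NK gene complex. In chromosome order they are Klrb1c (6:128778485-128789215), Klrd1 (6:129591782-129598775), Klrk1 (6:129610323-129623864), Klrc1 (6:129666015-129678973), Klra17 (6:129831154-129876672), Klra4 (6:130043731-130067271), Klra8 (6:130115226-130129898), Klra7 (6:130218605-130233322) and Klra3 (6:130323289-130337574). Ncr1 stands apart on chromosome 7 (7:4337724-4345164). The Ly49 genes are close copies of each other, which bears on how far their values can be separated. Of the 50-base stretches in the annotated transcripts of Klra17, Klrd1, Klrk1 and Ncr1, 0% recur in another gene. The share is 4.68% for Klra4, 12.3% for Klra7, 17.0% for Klrb1c, 20.7% for Klra3 (mostly Klra9), 33.1% for Klra8 (mostly the pseudogene Klra14-ps) and 38.6% for Klrc1 (mostly Klrc2), so the values of the last 3 are uncertain as levels of a single gene. These shares cover annotated genes only; the rows Klra33 and Klra18, described further on, make Klra4 uncertain as well.

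Promoter sequences from RefSeq (GRCm38.p6) were matched for 9 of the 10 genes, and 250 bases before the transcription start were searched for 4 short motifs on both strands. The Runx motif TGTGGT was present in 4 of 9 (Ncr1, Klrk1, Klrb1c and Klrc1), against 14.2% of all 27025 promoters. The Ets motif AGGAAG was in 2 of 9 (Klrb1c and Klra7), against 29.2%, and the T-box motif AGGTGT and the IRF motif (GAAA, any 2 bases, GAAA) were in 0 of 9, against 12.0% and 3.04%. No motif overlapped another of these 4 in the 9 promoters, apart from 2 Ets matches in Klrb1c that share bases with each other. A match describes letters and not a bound site. The promoters of Ncr1 (chr7:4337465-4337714, plus strand) and Klrk1 (chr6:129623865-129624114, minus strand) are shown as examples of the 4 that carry the Runx letters, which stand in capitals.
Ncr1: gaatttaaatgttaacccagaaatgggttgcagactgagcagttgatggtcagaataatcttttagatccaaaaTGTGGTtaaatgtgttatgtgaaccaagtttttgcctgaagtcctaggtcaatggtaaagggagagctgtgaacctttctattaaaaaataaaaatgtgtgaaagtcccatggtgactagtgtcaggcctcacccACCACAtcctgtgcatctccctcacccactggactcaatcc
Klrk1: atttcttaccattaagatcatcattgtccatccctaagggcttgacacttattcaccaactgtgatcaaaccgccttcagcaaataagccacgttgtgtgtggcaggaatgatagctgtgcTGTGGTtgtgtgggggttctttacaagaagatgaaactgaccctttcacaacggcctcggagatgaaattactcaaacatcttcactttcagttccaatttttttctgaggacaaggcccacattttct

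Klra4 and Klra8 are printed as a pair because they are both activating Ly49 genes that share most of this sequence, while their levels, described further on, lay in opposite directions between the tumor lines. Over 249 aligned bases of the 250 upstream of each start, 212 were identical (85.1%). Klra4 and Klra17 were alike at 84.2% of 240 aligned bases. Capitals mark the bases of Klra4 (chr6:130067272-130067521, minus strand) and Klra8 (chr6:130129899-130130148, minus strand) that are not identical to the other or have no partner in it.
Klra4: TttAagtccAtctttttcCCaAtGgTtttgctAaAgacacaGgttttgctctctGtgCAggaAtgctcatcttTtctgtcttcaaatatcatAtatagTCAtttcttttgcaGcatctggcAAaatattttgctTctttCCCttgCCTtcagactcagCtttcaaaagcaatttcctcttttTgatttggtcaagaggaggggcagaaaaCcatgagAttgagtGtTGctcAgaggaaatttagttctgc
Klra8: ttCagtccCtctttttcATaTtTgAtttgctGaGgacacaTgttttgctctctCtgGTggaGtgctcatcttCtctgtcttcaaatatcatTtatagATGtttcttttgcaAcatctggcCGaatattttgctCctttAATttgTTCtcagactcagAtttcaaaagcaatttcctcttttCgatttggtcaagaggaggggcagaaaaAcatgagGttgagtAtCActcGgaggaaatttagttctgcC

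Values are in TPM, transcript abundances that are scaled for transcript length and to a fixed total in each library, so levels can be set beside each other across genes. Read depth cannot be read from them. Between 12239 and 13993 genes per library reached 1 TPM, and the correlation between libraries over the genes tested ranged from 0.820 to 0.990. The tumors held little melanocyte lineage transcript: 7 lineage markers, Tyrp1, Dct and Sox10 among them, summed to between 8.2 and 35.4 TPM, and only Mitf and Tyr passed the filter. Keratinocyte transcripts were high in the triple therapy group, with 7 markers summing to 189 to 27806 TPM there. The sums were at most 4.7 TPM in parental isotype, parental anti-PD-1 and UV2 isotype libraries. In UV2 anti-PD-1 libraries they were 2.46, 2.85 and 306 TPM, and the last, replicate 3, lay above the lowest triple therapy library. Skeletal muscle markers ranged from 2.86 to 679 TPM with no group free of high libraries. In bulk tumor RNA, fewer cells of a type and less RNA per cell cannot be told apart.

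Receptor transcripts other than Klra4 were higher in UV2 than in parental tumors. Summed over the 9 genes, they came to 35.2, 29.2 and 76.1 TPM in the parental isotype libraries, 53.2, 45.7 and 24.5 TPM under anti-PD-1 and 25.7, 34.3 and 44.9 TPM under triple therapy. The UV2 sums were 45.1, 163 and 207 TPM under isotype and 194, 148 and 283 TPM under anti-PD-1. One UV2 isotype library, replicate 1, therefore stayed within the parental range, and the other 5 UV2 libraries lay above every parental library. Klrd1 was the most abundant of the 10 genes in each of the 6 UV2 libraries, whereas Klra4 was the most abundant in 5 of the 9 parental ones.

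**Figure D1:**
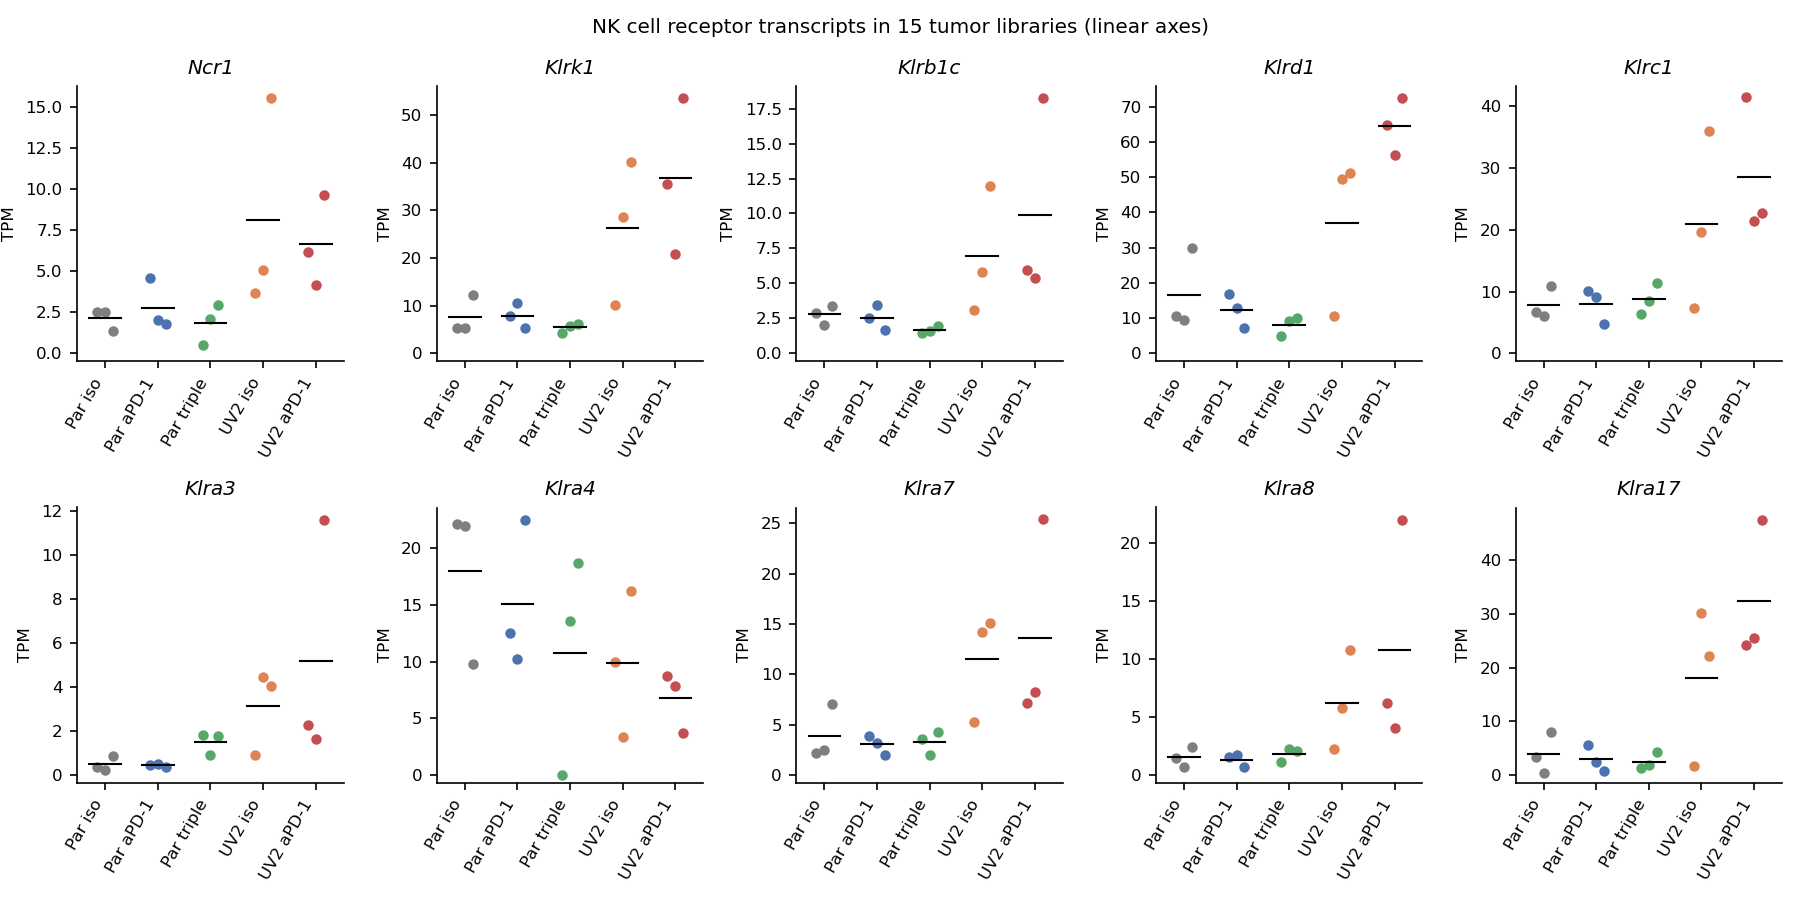
TPM of the 10 receptor genes in each of 15 libraries, with 1 point per library, a bar for each group mean and linear axes from 0 that differ between panels. Klrk1 and Klrd1 reach 53.7 and 72.5 TPM in UV2 tumors, UV2 isotype replicate 1 sits near the parental libraries for most genes, and Klra4 has its higher means in parental groups.

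Among the activating receptors, Ncr1 stood at 2.52, 2.52 and 1.37 TPM in parental isotype, 4.59, 2.02 and 1.77 TPM in parental anti-PD-1 and 0.54, 2.10 and 2.95 TPM in triple therapy libraries. In UV2 tumors it reached 3.70, 5.05 and 15.5 TPM under isotype and 6.16, 4.14 and 9.61 TPM under anti-PD-1. The isotype groups of the 2 lines did not overlap for Ncr1, but under anti-PD-1 1 parental library (4.59 TPM) exceeded 1 UV2 library (4.14 TPM). Klrk1 was more abundant, at 5.26, 5.31 and 12.4 TPM in parental isotype, 7.86, 10.5 and 5.27 TPM in parental anti-PD-1 and 4.39, 5.86 and 6.21 TPM in triple therapy. Its UV2 values were 10.2, 28.6 and 40.1 TPM under isotype and 35.6, 20.97 and 53.7 TPM under anti-PD-1. The parental isotype library at 12.4 TPM overlapped the lowest UV2 isotype library, and the anti-PD-1 groups were separate. Klrb1c averaged 2.79 ± 0.683 TPM (SD, n = 3) in parental isotype, 2.54 ± 0.896 in parental anti-PD-1, 1.68 ± 0.268 in triple therapy, 6.97 ± 4.56 in UV2 isotype and 9.89 ± 7.27 in UV2 anti-PD-1. The large SD of the last group came from 1 library at 18.3 TPM, the others being at 5.99 and 5.40.

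The inhibitory pair followed the same order of lines. Klrd1 stood at 10.5, 9.43 and 29.8 TPM in parental isotype, 16.8, 12.8 and 7.30 TPM in parental anti-PD-1 and 5.03, 9.31 and 10.1 TPM in triple therapy. UV2 tumors had 10.6, 49.4 and 51.1 TPM under isotype and 64.9, 56.4 and 72.5 TPM under anti-PD-1. Every UV2 anti-PD-1 library was thus above every other library of the series for Klrd1, while UV2 isotype replicate 1 lay within the parental range. Its partner Klrc1 was at 6.02 to 10.9 TPM in parental isotype, 4.70 to 10.1 in parental anti-PD-1, 6.40 to 11.3 in triple therapy, 7.38 to 35.9 in UV2 isotype and 21.3 to 41.4 in UV2 anti-PD-1. The ratio of Klrd1 to Klrc1 was lower in the 3 triple therapy libraries (0.786 to 1.10) than in the other 12 (1.41 to 3.20). That ratio was singled out after its values were seen and was not tested.

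Of the Ly49 genes, 4 were low in parental tumors and higher in most UV2 tumors. Klra17 stood at 3.37, 0.45 and 8.04 TPM in parental isotype, 5.52, 2.36 and 0.81 TPM in parental anti-PD-1 and 1.36, 1.83 and 4.26 TPM in triple therapy libraries. It reached 1.70, 30.3 and 22.1 TPM in UV2 isotype and 24.3, 25.5 and 47.5 TPM in UV2 anti-PD-1. Again the first UV2 isotype library lay among the parental ones. Klra7 ranged from 2.0 to 7.01 TPM in the 9 parental libraries and from 5.27 to 25.4 TPM in the 6 UV2 libraries, and Klra8 from 0.65 to 2.45 and from 2.23 to 22.0 TPM. Klra3 was the scarcest gene: at most 0.87 TPM in parental isotype and 0.49 TPM in parental anti-PD-1, 0.92 to 1.84 TPM in triple therapy, 0.93 to 4.44 TPM in UV2 isotype and 1.64 to 11.6 TPM in UV2 anti-PD-1. Klra3 reached 1 TPM in 7 libraries and in none of the parental isotype or anti-PD-1 groups, so it passed the filter through the groups in which it was higher.

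In the order of the 5 group means, UV2 anti-PD-1 came first and UV2 isotype second for Klrk1, Klrb1c, Klrd1, Klrc1, Klra3, Klra7, Klra8 and Klra17. For Ncr1 the 2 UV2 groups changed places, at 8.09 ± 6.47 TPM under isotype and 6.64 ± 2.77 TPM under anti-PD-1 (SD, n = 3 each). Neighbouring groups in these orders overlapped, with 2 exceptions among these 9 genes: Klrd1 between UV2 anti-PD-1 and UV2 isotype, and Klra3 between triple therapy and parental isotype.

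Differences between the lines were tested with limma on log2(TPM + 1), a scale that understates the change of genes with low values, and p-values were adjusted over all 13592 genes; a gene was called at an adjusted p under 0.05. Averaged over isotype and anti-PD-1 treatment, 9 of the 10 receptor genes rose in UV2 tumors and Klra4 did not pass. Klra3 is 1 of the 9, and since it entered the test only through the groups in which it was higher, its call and its lack of overlap here and below are descriptions. In that comparison 33% of all genes tested were called, 13.4% as higher in UV2. The median log2 fold change was 1.54 over the 10 genes and -0.12 over all genes. Klra17 had the largest value of the 10, at 2.46 ± 0.61 (SE; adjusted p = 0.0108). Klrk1 rose by 1.80 ± 0.33 (adjusted p = 0.00313), Klra8 by 1.73 ± 0.39 (adjusted p = 0.00726), Klrd1 by 1.69 ± 0.39 (adjusted p = 0.00837) and Ncr1 by 1.18 ± 0.35 (adjusted p = 0.0224). Klra3, Klra7, Klrc1 and Klrb1c rose by between 1.19 and 1.55, with adjusted p from 0.00877 to 0.0143. Over the 6 UV2 against the 6 parental isotype and anti-PD-1 libraries, only Klra3 of the 10 genes had no overlap, against a background of 4.46% of genes higher and 5.22% lower without overlap. The Ncr1 call was lost without parental anti-PD-1 replicate 3 (adjusted p = 0.0587) or UV2 anti-PD-1 replicate 3 (adjusted p = 0.0599).

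Under anti-PD-1 alone, 8 of the 10 genes rose in UV2 against parental tumors, with 26.4% of all genes called, 9.31% as higher and 17.1% as lower. Klra17 rose by 3.23 ± 0.86 (adjusted p = 0.0244), Klrd1 by 2.36 ± 0.55 (adjusted p = 0.018), Klra8 by 2.07 ± 0.55 (adjusted p = 0.0243) and Klrk1 by 2.03 ± 0.47 (adjusted p = 0.0177). The rises of Klra3, Klrc1, Klra7 and Klrb1c lay between 1.46 and 1.73. Ncr1 was 1.02 ± 0.49 higher without passing (adjusted p = 0.122). The groups did not overlap for the 8 genes that rose (background 16.9% of genes higher without overlap) nor, in the lower direction, for Klra4 (background 34.3%). These calls depended on single libraries: 0 of 10 genes passed once UV2 anti-PD-1 replicate 3 or parental anti-PD-1 replicate 3 was left out, and 4 once parental anti-PD-1 replicate 1 was. Without either of the first 2 libraries, genes called in the whole table fell from 3586 to 9, while the log2 fold changes of the 8 genes stayed between 0.95 and 2.92 with adjusted p from 0.0769 to 0.152. UV2 anti-PD-1 replicate 3 was also the library with 306 TPM of keratinocyte markers. It had the highest values of the series for Klrk1, Klrb1c, Klrd1, Klra3, Klra7, Klra8 and Klra17. The part of keratinocyte transcript in these values was not tested.

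Under isotype antibody, 0 of the 10 genes passed by limma, with 1.29% of all genes called and 0.905% called as higher. Of the 10, 9 had positive log2 fold changes and 6 had an unadjusted p under 0.05, as did 2418 of all genes. The median was 1.35 over the receptor genes and -0.04 over all genes. Klra17 stood at 1.70 ± 0.86 (adjusted p = 0.329), Klrk1 at 1.56 ± 0.47 (adjusted p = 0.11) and Ncr1 at 1.33 ± 0.49 (adjusted p = 0.171). Ncr1 and Klra3 had no overlap between the groups, against 10.4% of all genes higher and 9.15% lower without overlap. Without UV2 isotype replicate 1, the library that lay among the parental ones, Klrk1 (2.11, adjusted p = 0.0302) and Klrc1 (1.68, adjusted p = 0.0467) passed. Leaving out a UV2 library with low receptor values raises these fold changes by itself. In that setting 408 of 13571 genes were called, 364 as higher, against 176 genes in the main fit. Whether the line difference was larger under anti-PD-1 than under isotype is the same contrast as the difference between the anti-PD-1 effects in the 2 lines, and 0 of 10 genes passed it by limma, with 0% of all genes called and 404 at an unadjusted p under 0.05. The values in it ranged from -0.31 for Ncr1 to 1.53 for Klra17, with a smallest adjusted p of 0.8.

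**Figure D2:**
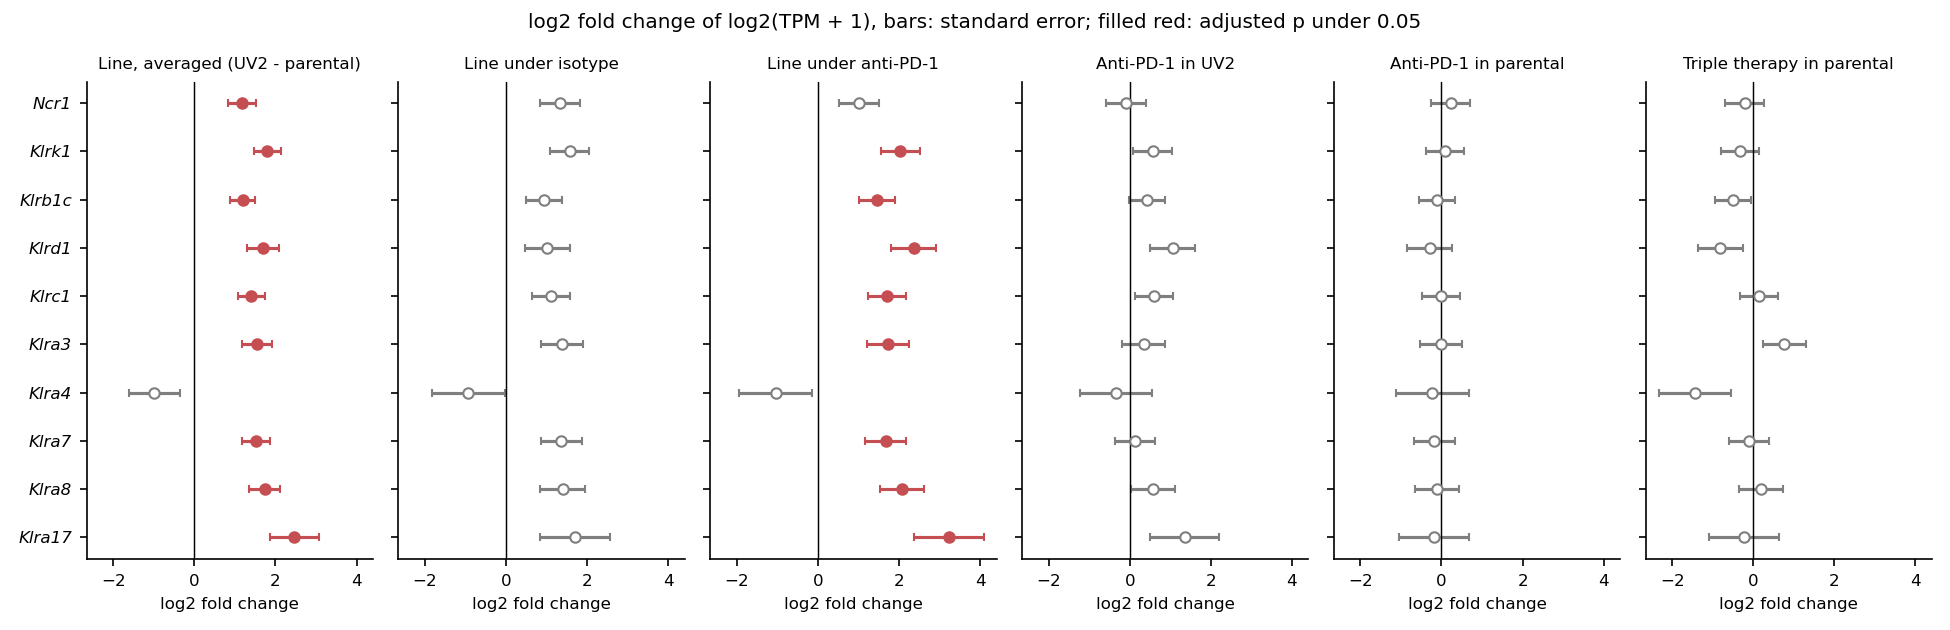
The log2 fold change of log2(TPM + 1) for each receptor gene in 6 comparisons, with bars for the standard error and filled red points where the adjusted p is under 0.05. All 9 filled points of the averaged line comparison and all 8 under anti-PD-1 lie to the right of 0, Klra4 lies to the left in those panels, and no point is filled in the 3 treatment panels.

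Treatment within a line gave no call among the 10 genes. In UV2 tumors, anti-PD-1 against isotype gave 0 of 10 by limma, with 0.0147% of all genes called, 0 members and 1245 genes at an unadjusted p under 0.05, and values from -0.33 for Klra4 to 1.35 for Klra17 (smallest adjusted p = 0.557). Klrd1, at 1.06 ± 0.55, was the 1 gene whose UV2 groups did not overlap, against a background of 5.7% higher and 7.28% lower without overlap. In parental tumors, anti-PD-1 against isotype gave 0 of 10, with 0% of all genes called, 0 members and 83 genes at an unadjusted p under 0.05. The values were small, from -0.28 for Klrd1 to 0.22 for Ncr1, with standard errors for these 2 of 0.55 and 0.49. All 10 genes overlapped between these groups, beside 2.7% of all genes higher and 1.57% lower without overlap.

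In parental tumors, triple therapy against isotype gave 0 of 10 by limma, with 0.0221% of all genes called, 0 members and 1714 genes at an unadjusted p under 0.05. The values ran from -1.44 ± 0.90 for Klra4 to 0.77 ± 0.52 for Klra3, with a smallest adjusted p of 0.527. Klra3 was higher without overlap and Klrb1c lower without overlap, beside backgrounds of 12.7% and 3.39% of genes. Against parental anti-PD-1, triple therapy gave 0 of 10 by limma, with 0% of all genes called, 0 members and 1411 genes at an unadjusted p under 0.05, and values from -1.21 for Klra4 to 0.79 for Klra3. Klra3 alone had no overlap there, in the higher direction, beside 7.3% of genes higher and 5.01% lower without overlap. These comparisons share parental control libraries. Keratinocyte markers were high in the triple therapy libraries, as given above, though 1 UV2 anti-PD-1 library reached 306 TPM. The markers stood at 27806 TPM in triple therapy replicate 1, in which Ncr1, Klrk1, Klrb1c, Klrd1 and Klra4 had their lowest values of the series. Their part in these values was not tested.

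Klra4 (Ly49D) went against the other Ly49 genes among the 10. It stood at 22.2, 21.9 and 9.74 TPM in parental isotype, 12.5, 10.3 and 22.5 TPM in parental anti-PD-1 and 0, 13.6 and 18.7 TPM in triple therapy libraries. UV2 tumors had 9.94, 3.36 and 16.2 TPM under isotype and 8.71, 7.88 and 3.74 TPM under anti-PD-1. The isotype groups overlapped, and the anti-PD-1 groups did not. The log2 fold change of UV2 against parental tumors was -0.99 ± 0.63 averaged (adjusted p = 0.233), -0.93 ± 0.90 under isotype (adjusted p = 0.642) and -1.04 ± 0.90 under anti-PD-1 (adjusted p = 0.374). It passed in the averaged comparison without triple therapy replicate 1, the library at 0 TPM, which enters only the shared spread (-0.99, adjusted p = 0.0454). Klra8 (Ly49H), the other activating Ly49 gene, was by contrast at most 2.45 TPM in parental tumors. The log2 ratio of Klra8 to Klra4, each with 1 TPM added, ran from -3.83 to -1.64 over the 6 parental isotype and anti-PD-1 libraries and from -1.76 to 2.28 over the 6 UV2 libraries. The pair was chosen after its values were seen, so the exact permutation p computed for it is not used here. Outside the 10, the Ly49 gene Klra6 was also lower in UV2 tumors, at -0.37 ± 0.43 (SE) under isotype and -0.40 ± 0.43 under anti-PD-1. It did not pass in either. Of 12 further listed killer lectin-like receptors tested, 11 had positive values in both, Klra6 being the exception. The rows Klra33 and Klra18, described next, are outside that list and had negative values in both. Under isotype and anti-PD-1, Klra33 stood at -2.68 and -4.45, and Klra18 at -1.31 and -0.90.

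The table has 21 Klra rows, of which 12 carry the name of a GENCODE M21 gene and 9 do not. Among the 9 are Klra33, listed as a synonym of Klra4 in the RefSeq table for GRCm38.p6, and Klra18, which matched no entry. Klra33 stood at 41.2, 19.5 and 20.1 TPM in parental isotype, 33.7, 15.3 and 17.3 TPM in parental anti-PD-1 and 4.45, 26.0 and 29.5 TPM in triple therapy. In UV2 tumors it was listed at 6.19, 0 and 8.58 TPM under isotype and at 0 in all 3 anti-PD-1 libraries. No UV2 library overlapped the 6 parental isotype and anti-PD-1 libraries for Klra33. Klra18 was higher still, at 52.9 to 109.9 TPM in these 6 libraries, 2.84 to 76.6 TPM under triple therapy and 28.8 to 61.6 TPM in UV2 tumors. Over 15 libraries the log2 values of Klra4 correlated with those of Klra18 at r = 0.86 and with those of Klra33 at r = 0.56, a description of libraries that share their groups. By rank (Spearman's rho) the order was reversed, at 0.62 for Klra18 and 0.74 for Klra33. With group means removed, r was 0.84 and 0.78. How the authors' counting divided reads among these 3 rows is not given in the sources used here, so their separate levels are uncertain.

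**Figure D3:**
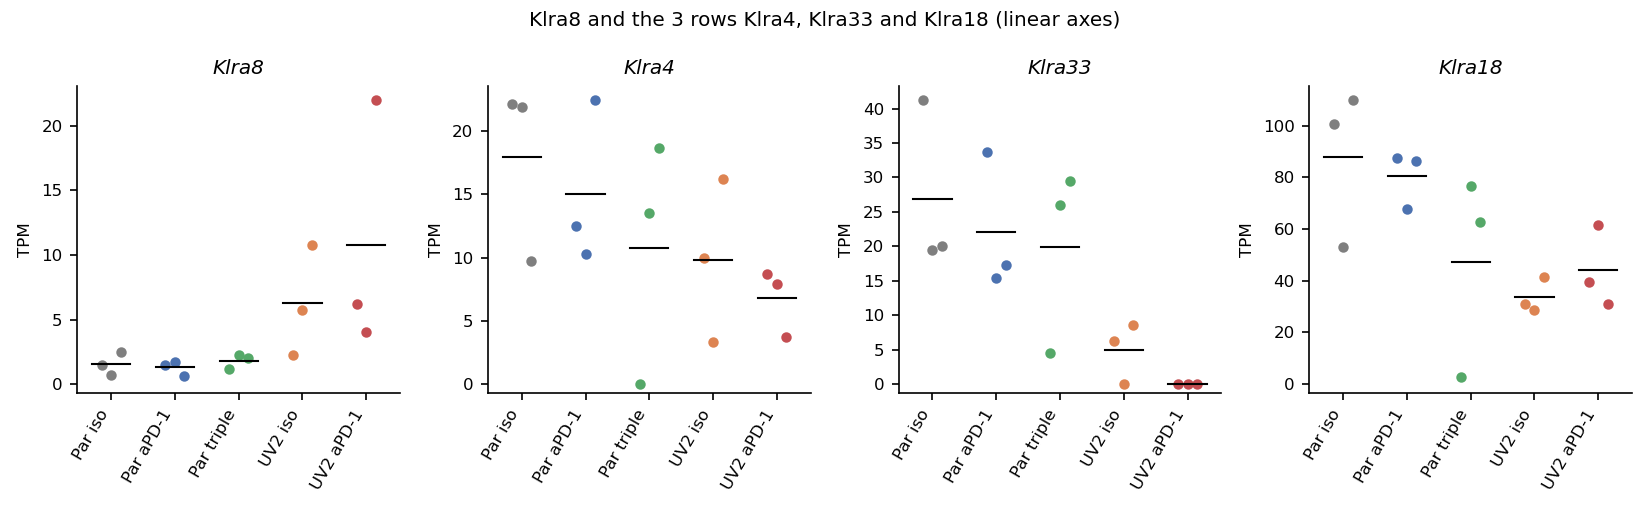
TPM of Klra8, Klra4, Klra33 and Klra18 in each of 15 libraries, with 1 point per library, a bar for each group mean and linear axes that differ between panels. Klra8 is higher in UV2 groups, Klra33 is at 0 in 4 UV2 libraries, and the triple therapy library at 0 TPM for Klra4 is also the lowest parental library for Klra33 and Klra18.

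Sums of Klra4 with these rows gave a different result from Klra4 alone. With Klra33 added, the level was 63.4, 41.4 and 29.8 TPM in parental isotype and 46.2, 25.6 and 39.7 TPM in parental anti-PD-1 libraries. It was 16.1, 3.36 and 24.8 TPM in UV2 isotype and 8.71, 7.88 and 3.74 TPM in UV2 anti-PD-1 libraries, below all 6 of these parental libraries. Triple therapy libraries had 4.45, 39.5 and 48.1 TPM, the first of which lay within the UV2 range. The sum fell by 2.07 ± 0.55 on the log2 scale averaged over treatment (adjusted p = 0.0144) and by 2.32 ± 0.77 under anti-PD-1 (adjusted p = 0.0442), whereas under isotype it was at -1.82 ± 0.77 (adjusted p = 0.239). With Klra18 added as well, the averaged value was -1.35 ± 0.54 (adjusted p = 0.0682). Klra33 alone fell by 3.56 ± 0.55 averaged (adjusted p = 0.00163) and by 4.45 ± 0.78 under anti-PD-1 (adjusted p = 0.0106) by limma. The fall of the sum with Klra33 therefore includes that of Klra33 and is not a result for Klra4 alone. Both sums were chosen after the values were seen, so their calls are descriptions.

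The other 9 genes varied together. Over the 15 libraries, the 36 pairs among them had Pearson's r of log2 values between 0.64 and 0.96 (median 0.87), and between 0.35 and 0.96 (median 0.73) once group means were removed. Klra4 correlated with these 9 at -0.49 to 0.17 (median -0.20), and at -0.34 to 0.52 (median -0.07) once group means were removed. The highest of the latter was with Ncr1. The correlations describe libraries that share groups and a fixed total. For each receptor gene, the 5 genes with the highest r among all genes tested were taken. For Ncr1 these were the interleukin-2 receptor gene Il2ra (r = 0.87), Eomes (r = 0.86), Tlr11, Klri2 and Shisa5. For Klrb1c they were Klra8 (r = 0.95), Klrk1, Klri2, 1600014C10Rik and Klrb1a, so 4 of the 5 were killer lectin-like receptor genes. Klrd1 was closest to the T cell genes Cd8b1 and Cd3g (r = 0.98 each), then Cst7, Lag3 and Sla2. Klrk1 was closest to Ctsw (r = 0.98), 1600014C10Rik, Cd2, Ms4a4b and Lck, and those of Klrc1 included Il2rb (r = 0.98), Ikzf3, Rasal3 and Cd96. Klra17 was closest to Cd8b1 (r = 0.96), Dusp2, Klrd1, Bcl2a1d and Klre1, and Klra8 to 1600014C10Rik (r = 0.96), Klra9, Sectm1a, Klrb1c and Klrk1. Klra7 was closest to Ly6e (r = 0.95), 1600014C10Rik, Klra1, Ctsw and Kynu, and Klra3 to the IgE receptor gene Fcer1a (r = 0.96), Ogfrl1, Klra9, Clec12a and Cabp4.

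Klra4 had none of these neighbours: its 5 were Tmem200a (r = 0.95), the transcription factor gene Sox2 (r = 0.94), Ndp, Cdca5, a cell cycle gene (r = 0.93 each), and Kcnj12 (r = 0.92). Sox2 ranged from 57.8 to 92.4 TPM in the 6 parental isotype and anti-PD-1 libraries and from 17.7 to 46.6 TPM in the 6 UV2 libraries, and stood at 5.04 TPM in the triple therapy library in which Klra4 was at 0. With group means removed the r of Klra4 with these 5 genes was 0.93 to 0.96. That triple therapy library had the lowest value of the series for all 5, and removing group means leaves it apart from its group. By rank, over all libraries, the correlation (Spearman's rho) was 0.84 to 0.90.

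T cell genes moved with the receptor genes. The 11 T cell markers summed to 44.5 to 148 TPM in parental isotype, 39.8 to 121 in parental anti-PD-1, 53.2 to 73.2 in triple therapy, 75.3 to 337 in UV2 isotype and 386 to 542 in UV2 anti-PD-1. Of the 11, 10 rose in the averaged line comparison, Lck by 1.92 ± 0.34 (adjusted p = 0.00273), Cd3d by 2.21 ± 0.42 (adjusted p = 0.00339), Cd3g by 2.07 ± 0.43 (adjusted p = 0.00503), Cd5 by 1.57 ± 0.32 (adjusted p = 0.00503), Cd3e by 1.70 ± 0.41 (adjusted p = 0.0102) and Cd8a by 1.67 ± 0.46 (adjusted p = 0.0165). UV2 isotype replicate 1, low for most receptor genes, had 6.72 TPM of Cd3e against 27.8 and 34.3 TPM in the other libraries of its group. Ncr1 relative to Cd3e ranged from 0.0841 to 0.551 over the 15 libraries, and the 5 groups overlapped in it, with 0.0927 to 0.274 in UV2 anti-PD-1 and 0.181 to 0.551 in UV2 isotype. In the averaged line comparison, used for the lists below as well, 13.4% of all genes were called as higher and 19.6% as lower. Under isotype alone 0 of the 11 T cell markers passed, and under anti-PD-1 alone 9 did. The part of T cells in the receptor values was not tested.

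**Figure D4:**
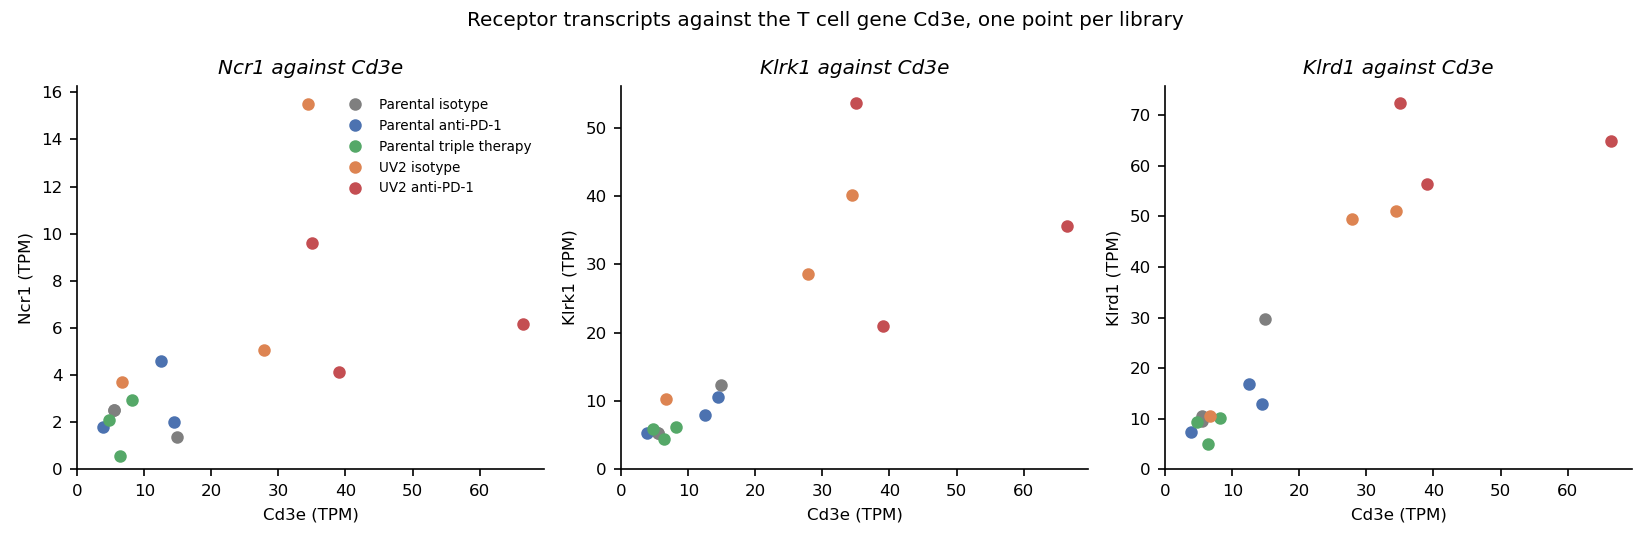
TPM of Ncr1, Klrk1 and Klrd1 against TPM of the T cell gene Cd3e, with 1 point per library colored by group and linear axes from 0. Klrd1 and Cd3e are low together and high together, while the library with the highest Ncr1 (15.5 TPM) has 34.3 TPM of Cd3e and the library with the highest Cd3e (66.5 TPM) has 6.16 TPM of Ncr1.

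Markers of 2 other cell types that could carry some of these receptors also moved with the line. Those of plasmacytoid dendritic cells, known to carry Klra17, summed to 438 to 1264 TPM in the 9 parental and 889 to 2551 TPM in the 6 UV2 libraries. These sums do not measure that cell type: Bst2, which many cells make, ranged from 298 to 2450 TPM over the 15 libraries, and Ly6d gave 873 TPM in the triple therapy library with the most keratinocyte transcript, whereas Siglech was at most 2.66 TPM. Of 7 tested, 4 rose and 1 fell in the averaged line comparison; the defining gene Siglech rose by 0.72 ± 0.21 (adjusted p = 0.0227), from 0.890 ± 0.579 TPM in parental isotype to 1.78 ± 0.800 TPM in UV2 isotype (SD, n = 3 each). Markers of macrophages and monocytes summed to 588 to 1509 TPM in parental and 1112 to 2001 TPM in UV2 libraries, with 5 of 8 higher, among them Ly6c2 by 2.65 ± 0.42 (adjusted p = 0.00177). The part of these cells in the receptor values was not tested.

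Transcription factors of NK cells were split. In the averaged line comparison, 5 of 9 tested were higher in UV2 and 1 was lower (median 0.64, against -0.12 for all genes). Tbx21, which encodes T-bet, rose by 1.82 ± 0.32 (adjusted p = 0.00244) and Eomes by 0.84 ± 0.20 (adjusted p = 0.00948). Both factors direct NK cell maturation and are also used by CD8 T cells. Eomes was scarce, at 0.940 ± 0.301 TPM in parental isotype and 3.05 ± 1.16 TPM in UV2 anti-PD-1 (SD, n = 3 each). Tox rose by 1.62 ± 0.35 (adjusted p = 0.00646), and under anti-PD-1 Id2 rose by 0.91 ± 0.15 (adjusted p = 0.00957). Nfil3, a factor needed early in NK cell development and also made by many other cells, fell by 1.10 ± 0.23 (adjusted p = 0.00488).

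Many other killer lectin-like receptors were higher too: of 16 listed, 12 were tested and 9 rose in the averaged line comparison (median 0.96). Klre1 rose by 2.31 ± 0.43 (adjusted p = 0.00333), Klra9 by 1.79 ± 0.28 (adjusted p = 0.00174), Klra2 by 1.48 ± 0.32 (adjusted p = 0.00657) and Klri2 by 0.95 ± 0.22 (adjusted p = 0.00833). Klre1 is a receptor subunit that pairs with Klri chains. Klra2 was abundant for a receptor of this family, at 26.8 ± 6.93 TPM in parental isotype and 103 ± 27.9 TPM in UV2 anti-PD-1 (SD, n = 3 each). Of 10 other NK surface receptors 9 rose (median 1.20), among them Cd160 by 1.20 ± 0.24 (adjusted p = 0.00463), Slamf6 by 1.20 ± 0.27 (adjusted p = 0.00692) and Slamf7 by 1.18 ± 0.27 (adjusted p = 0.00744). Crtam, another of the 9, was at most 1.05 TPM in parental libraries and 1.52 to 4.03 TPM in UV2 libraries, so it entered the test through the line in which it was higher.

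Adaptors and signalling molecules, through which receptors without signalling tails of their own act, were higher in 12 of 13 tested (median 1.46). Hcst (DAP10), the partner of Klrk1, rose by 1.82 ± 0.35 (adjusted p = 0.00367). Tyrobp (DAP12), a partner of Klra4 and Klra8, rose by 1.22 ± 0.20 (adjusted p = 0.00194) from a level of 475 ± 173 TPM in parental isotype, above the level of any of the 10 receptors; myeloid cells are known to make it too. Fcer1g, a partner of Ncr1, rose by 1.46 ± 0.21 (adjusted p = 0.00136). Ptpn6 (SHP-1), the phosphatase recruited by inhibitory receptors, rose by 1.55 ± 0.21 (adjusted p = 0.00117), and Vav1 and Lat2 by 1.17 and 1.20. Macrophage and monocyte markers rose in the same comparison, as given above. Which cells carried the transcripts of this list was not tested.

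The ligands of Klrk1 went the other way. Of 9 listed, 8 were in the table, H60a is not analysed here, and of the 5 tested 0 rose and 3 fell in the averaged line comparison (median -0.58, with 19.6% of all genes called as lower). Ulbp1 fell by 2.08 ± 0.55 (adjusted p = 0.0146), from 30.1 ± 18.4 TPM in parental isotype to 11.6 ± 9.33 TPM in UV2 isotype, and from 35.4 ± 14.8 TPM to 5.25 ± 4.63 TPM under anti-PD-1 (SD, n = 3 each). Raet1e fell by 0.85 ± 0.20 (adjusted p = 0.00944) and Raet1d by 0.58 ± 0.20 (adjusted p = 0.0371). The Raet1d value combined -1.19 ± 0.28 under isotype (adjusted p = 0.0551) with 0.02 ± 0.28 under anti-PD-1 (adjusted p = 0.967). Of 7 tested ligands of inhibitory receptors, 3 rose and 4 did not pass (median 0.57). The classical class I genes H2-K1 and H2-D1 were among those that did not pass, at 0.57 ± 0.25 (adjusted p = 0.0869) and 0.26 ± 0.20 (adjusted p = 0.313). H2-T23, whose product Qa-1b is bound by the Klrd1 and Klrc1 pair, rose by 1.32 ± 0.32 (adjusted p = 0.0099), from 308 ± 70.5 TPM in parental isotype to 879 ± 450 TPM in UV2 isotype. Clec2d, whose product binds receptors of the Klrb1 group, rose by 1.62 ± 0.25 (adjusted p = 0.00163) and Clec2i by 1.07 ± 0.28 (adjusted p = 0.0138).

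Effector genes of cytotoxic cells rose in 12 of 14 tested (median 1.70). The granule gene Nkg7 rose by 2.25 ± 0.40 (adjusted p = 0.00272), the chemokine genes Ccl4 by 2.05 ± 0.37 (adjusted p = 0.00274) and Xcl1 by 1.78 ± 0.27 (adjusted p = 0.00162), and the protease gene Ctsw by 1.69 ± 0.30 (adjusted p = 0.00273). Of 11 tested cytokine and cytokine receptor genes 8 rose (median 1.12), with Il12rb1, a receptor chain for interleukin-12, at 1.82 ± 0.35 (adjusted p = 0.00348) among them. Il12b, a chain of the cytokine itself, was also called, but it entered the test through UV2 tumors, at 0.27 to 1.2 TPM in parental and 2.21 to 6.72 TPM in UV2 libraries. Of 10 tested maturation and homing genes 7 rose (median 1.28), with Cxcr3 at 1.69 ± 0.33 (adjusted p = 0.00409) and Cd27 at 1.53 ± 0.30 (adjusted p = 0.00421). T cells make most of the genes in these 3 lists as well, and the lists were chosen with earlier results of these data known. Under isotype alone, beside 0.905% of all genes, 1 of 14 effectors, 1 of 11 cytokine genes and 0 of 10 homing genes passed as higher. Of the preceding lists, 0 of 12 other killer lectin-like receptors, 0 of 10 surface receptors and 1 of 13 adaptors passed there. Under anti-PD-1 alone, beside 9.31% of all genes, these counts were 10, 6, 6, 5, 9 and 12 in the same order.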

How the data were processed

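The deposited table holds TPM values for 15 libraries, made by the authors with Bowtie2 and RSEM against mouse builds mm10 and GRCm38, per the submitters' processing notes; versions are not given in the sources used here. TPM columns were matched to samples by the column name given in each sample's description, and groups were taken from the titles. Each column sums to 1000000 within rounding, so depth is unknown and no counting interval is given. No batch is named in the labels.

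Genes with at least 1 TPM in at least 3 libraries were tested with limma 3.58.1 (R 4.3.3; trend and robust, two-sided) on log2(TPM + 1), with 1 coefficient per group over all 15 libraries (10 residual degrees of freedom) and Benjamini-Hochberg adjustment over the genes tested in each of 8 comparisons. The fit was tested on simulated data. That simulation had less spread than the 10 genes have, and changes were planted only in more abundant genes. It therefore does not measure how the fit performs on the 10 genes. Gene positions and shared stretches came from GENCODE M21 (GRCm38), promoters and synonyms from RefSeq (GRCm38.p6). The 10 genes and 17 further lists were chosen with earlier results of these data known. All 10 genes were named; of each other list, up to 4 called genes with the smallest p, or 2 where none was called, with the defining markers Cd3e, Cd8a and Siglech beside results; of genes alike, the 5 with the highest Pearson r. The adaptors Hcst and Tyrobp, the ligands H2-K1, H2-D1 and Raet1e (averaged), Bst2, Ly6d, Eomes, Klra6, Klra33, Klra18 and Sox2 were also given values after theirs were seen. Correlations carry no p. A few genes that this rule would name are not reported here.

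Alternatives were a pseudocount of 0.1, no filter, a filter of 5 TPM, median-of-ratios scaling, quantile normalization, only the groups compared, a replicate block and leaving out each library. Sums of Klra4 with Klra33 and Klra18 were added after seeing the data. Markers of neutrophils and B cells gave 1 of 6 and 1 of 2 genes higher in the averaged line comparison (Csf3r and Cd79b), and keratinocyte, muscle and melanocyte lists 0 of 7, 0 of 5 and 0 of 2.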

Additional observations from a re-analysis of the deposited data

How the results depend on the processing

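No receptor gene changed direction in the 3 line comparisons under any alternative run. Of the 10 genes, 9 were called in the averaged line comparison under a pseudocount of 0.1, no filter, both scalings, the 2 lines' groups alone and the replicate block, and 8 of 9 tested under a filter of 5 TPM. Under anti-PD-1 7 or 8 were called in these settings, and under isotype 0. With Klra4 summed with Klra33, 10 and 9 were called in the averaged and anti-PD-1 line comparisons, and 9 and 8 with Klra18 added too. The sum with Klra33 was itself among those called, and it was lower in UV2 tumors, unlike the other genes called. Its call is a description, because Klra33 was added after its values were seen and fell by itself. In the main fits, 33% and 26.4% of all genes were called in the averaged and anti-PD-1 comparisons. Leaving out 1 library gave 8 to 10 genes in the averaged comparison, 0 to 8 under anti-PD-1 and 0 to 2 under isotype, and 0 to 0 in each of the 5 other comparisons. The count of 10, without triple therapy replicate 1, included Klra4, which was lower in UV2 tumors. With a library left out of a group, its 2 others set that group's mean while all groups share the spread.

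Counts over all genes moved more: for isotype, 176 genes were called, 82 with no filter, 70 with the compared groups alone, and 3 to 457 with 1 library left out. For anti-PD-1, 3586 were called and 9 to 4660 with 1 library left out, and for the averaged comparison 4484 and 2660 to 5816. Leaving out triple therapy replicate 2 gave 238 genes against isotype and 152 against anti-PD-1. Median-of-ratios scaling raised the median of all genes by 0.24 under anti-PD-1 and 0.15 in the averaged comparison, and quantile normalization by 0.16 under anti-PD-1. Genes called higher went from 1265 of 3586 to 1950 of 3743 (median of ratios) under anti-PD-1, from 1823 of 4484 to 2448 of 4751 averaged, and from 123 of 176 to 65 of 147 under isotype. The cause was not tested.

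Libraries with the same replicate number in their titles did not deviate together: 10 of 30 pairs correlated above 0.1 (r from -0.54 to 0.47), and 5 of 15 libraries correlated best with their own number. The column names carry other numbers, and pairing by those was not tested. The block described next used the title numbers too. The replicate block left 0, 8 and 9 receptor genes called in the isotype, anti-PD-1 and averaged comparisons, with 37, 2526 and 4008 genes called overall. The unknown depth limits the scarcest genes, above all Klra3.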
